A study of Mus musculus with 6 samples.

Results

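The numbered Zfp genes on mouse chromosomes 6, 7, 10, 13 and 17 are described here, as they appear in captured methylated DNA of whole lung. The members were the protein-coding genes of a RefSeq table (mm10, GRCm38.p6) whose symbol is Zfp followed by a number alone, without Zfp42. This rule gave 185 of 21887 protein-coding genes, 90 of them on chromosome 7, 41 on chromosome 17, 32 on chromosome 13, 17 on chromosome 6 and 5 on chromosome 10. A member was clustered (131 genes) when it lay in a run of 3 or more members with gaps of at most 250 kb, and 15 such runs were found. It was isolated (34 genes) when no other member lay within 250 kb, and the other 20 genes formed pairs. Runs were built from Zfp names alone, so an isolated member can still lie beside zinc-finger genes that carry other names.

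Lung DNA was sequenced in 3 libraries labelled transgenic and 3 labelled wild type, from mice aged 12 to 16 months. The labels speak of 3 samples in each group and do not say that each came from a separate animal, so p-values measure the spread between these samples. No p-value here measures the spread between genes or between runs of genes. The transgene, labelled SPC-DNMTdelta3B/DG, places a deletion variant of DNMT3B under the promoter of surfactant protein C, which is active in alveolar type 2 cells, while the DNA was taken from all cells of the lung. Transgenic replicate 2 is labelled SPC-DNMTdeltaB/DG. The labels name several founder lines and give neither the line nor the sex of the animals sequenced. A peak marks a place where DNA held by a methyl-binding protein was enriched in 1 library, and a change in few cells cannot be told apart from a smaller change in many.

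Most genes named Zfp encode transcription factors with rows of zinc fingers of the cysteine-histidine type. Many of them carry a KRAB domain, which recruits the co-repressor Trim28 and the histone methyltransferase Setdb1 to silence transposable elements. Such genes arose by tandem duplication and often sit side by side, and in many of them the whole finger array is encoded by the last exon. The name also covers unrelated proteins, such as the RNA-binding protein Zfp36.

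The libraries differed in the length of their peak lists. Lists held 78952 to 120349 peaks in the transgenic and 30640 to 111211 in the wild-type group, and peaks covered 35.4 to 63.4 Mb and 6.89 to 54.4 Mb of the genome. Read depth is unknown. Wild-type replicate 3 had the shortest list and the narrowest peaks, with a median width of 197 bp against 376 to 460 bp in the other 5 lists. Transgenic replicates 1 and 3 had 2.96% and 3.48% of their peaks on chromosome X, where the other 4 lists had 4.25% to 6.39%. On chromosome Y they had 1.67% and 1.86%, against 0.599% to 0.911%. The members are all autosomal, and the part of this split in the values below was not tested.

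At zinc-finger genes, peaks covered more of the bases around the transcription end than around the start. Strand was available for 166 members. Start and end were the outer ends of the gene span, so a promoter window can lie elsewhere in a gene. That is so for Zfp787, whose promoter window printed below lies outside its 1 kb start window. Within 1 kb on either side of the transcription start, 1.48%, 1.01% and 0.781% of bases lay under a peak in transgenic replicates 1, 2 and 3, and 0.332%, 1.23% and 0.317% in wild-type replicates 1, 2 and 3. Around the transcription end the same shares were 4.26%, 3.81% and 2.62% in the transgenic and 2.75%, 3.87% and 0.512% in the wild-type libraries. The start was below the end in 6 of 6 libraries, by 2.11 ± 1.00 percentage points (SD, n = 6; two-sided exact sign-flip permutation test over libraries, p = 0.0313, the smallest this test can give, and 0.0313 adjusted over 4 contrasts). The difference of start minus end was -0.92 points with windows of 500 bp. With the windows of both ends pooled, 2.01 ± 0.928% of bases were covered against 2.64 ± 1.29% of the gene body (SD, n = 6; difference -0.62 points, exact sign-flip permutation p = 0.0313, adjusted p = 0.0313). This difference turned to 0.398 points when the windows were widened from 1000 to 2000 bp (exact sign-flip permutation p = 0.0313). It was -0.99 points with windows of 500 bp and -3.01 points as a mean over genes. The direction of ends against body thus depended on the width of the windows. At other protein-coding genes of the same chromosomes the end was also covered more than the start, in means of 6 libraries. Their first kb had 1.82% and the kb before it 0.965%, against 4.67% in the last kb and 1.46% in the kb beyond. This was not tested.

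A profile in steps of 1 kb shows what the wider windows took in. The step was chosen after the data were seen, and its values are given as a description. Coverage was highest from 1 to 2 kb inside the transcription end, with 13.6%, 12.0% and 9.81% of bases in transgenic replicates 1, 2 and 3 and 8.93%, 12.8% and 2.64% in wild-type replicates 1, 2 and 3. Wild-type replicate 3 was lowest and the other 5 libraries of both groups overlapped. The next kb inwards had a mean of 6.31% and the last kb of the gene 5.05%, while the first kb beyond the end had 0.886% and the first kb of the gene 0.956% (means of 6 libraries). In each library the stretch from 1 to 2 kb inside the end was covered 8.32 to 19.3 times as much as the first kb of the gene. Other protein-coding genes of the same chromosomes were also covered most in this stretch, with 8.87%, 7.22%, 4.86%, 3.36%, 7.61% and 0.747% in the libraries in the same order. The ratio of zinc-finger to other genes in this stretch was 1.53 to 3.53. Clustered members reached 11.2% there and the 31 isolated members with strand 2.25%, while the 15 members in pairs reached 15.6% (means of 6 libraries). Isolated members were covered most from 2 to 3 kb inside the end, at 5.32 ± 4.01% (SD, n = 6).

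**Figure D1:**
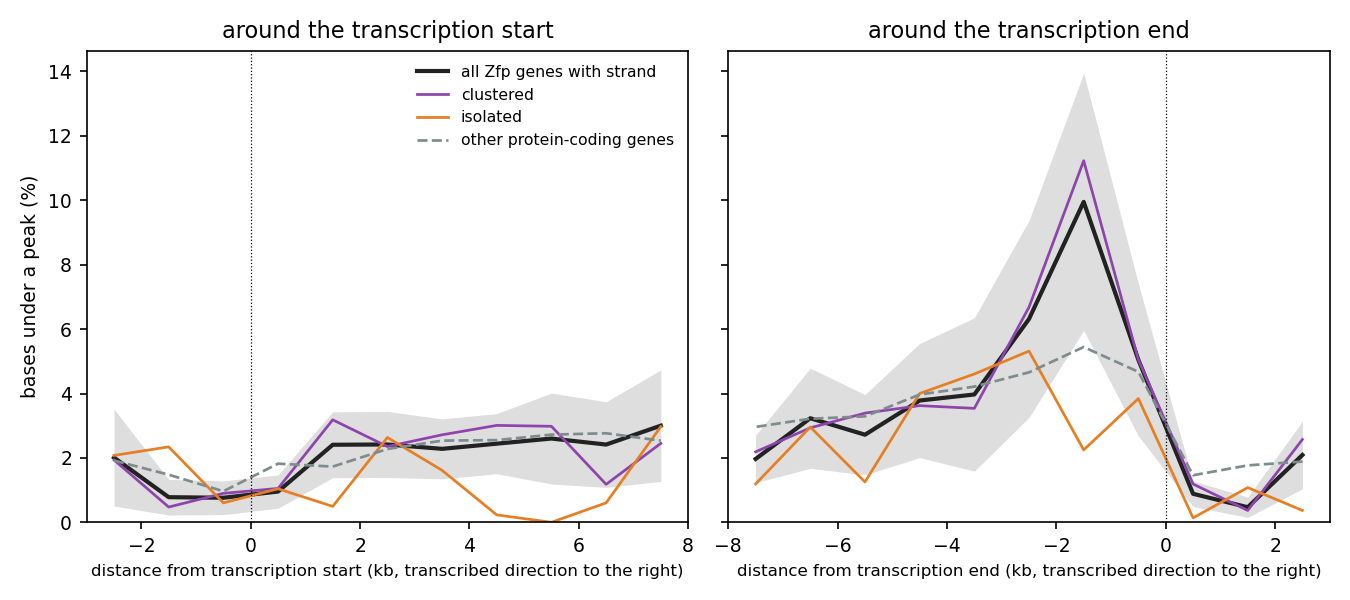
Percent of bases under a peak in 1 kb steps around the transcription start (left) and the transcription end (right), as the mean of 6 libraries, for zinc-finger genes with a known strand (black, with a band of 1 SD over libraries), for their clustered and isolated members and for other protein-coding genes of the same chromosomes. The black line is at 0.763% and 0.956% in the kb before and after the start and reaches 9.95% from 1 to 2 kb before the end, against 5.44% for other genes.

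Counted as genes, 55, 56 and 46 of the 166 members had a peak in their last 3 kb in transgenic replicates 1, 2 and 3, and 48, 52 and 24 in wild-type replicates 1, 2 and 3. From 1 to 2 kb inside the end, 24.1%, 22.9% and 19.9% of members had a peak in the transgenic libraries. The shares of other protein-coding genes there were 21.8%, 20.1% and 14.0%. In the wild-type libraries it was 19.3%, 23.5% and 7.83% of members against 10.1%, 20.3% and 3.86% of other genes. Counted this way, the 2 sets were close in the 3 longest lists. Within 1 kb of the start, 10, 8 and 6 members had a peak in the transgenic and 3, 9 and 5 in the wild-type libraries. At the start 153 members had no peak in any library, and 3 had one in all 6. These 3 were Zfp180, Zfp61 and Zfp229, named here after their values were seen. The start of Zfp61 (24303840) lay inside Zfp94 (24301704 to 24316698), near the transcription end of that gene. In all, 26 members had a window overlapping that of another member, so a peak could count for both. Among members of at least 6 kb with a peak inside, the highest-scoring peak lay in the last 3 kb in 32.3% to 41.3% of genes and in the first 3 kb in 0% to 8.89%, by library. For other protein-coding genes these shares were 15.8% to 22.0% and 4.71% to 7.46%. In most genes the highest-scoring peak lay between these stretches, at 55.6% to 63.4% of members and 70.8% to 79.5% of other genes. The share in the last 3 kb was 33.3% to 45.3% for clustered and 10.5% to 25% for isolated members. Only 8 to 21 isolated members were counted per library, and their shares overlapped those of other genes.

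The promoter sequences of 3 members show a start with peaks and 2 without. RefSeq promoter windows (GRCm38.p6, 250 bases before to 50 after a start) were found for 166 members, 197 windows in all. They held a median of 12 CpG dinucleotides, the site that such a methyl-binding protein holds when it is methylated, against 13 in all 21263 windows of protein-coding genes. A peak of at least 1 library touched 5 of the 197 windows (2.54%) and 6.78% of the windows of protein-coding genes. Zfp180 had the only window touched in 5 lists, with the authors' scores of 711, 401 and 239 in transgenic replicates 1, 2 and 3 and 240 and 511 in wild-type replicates 1 and 2. Zfp746 and Zfp787, the members with a differential region, had no peak at all over a window that is much richer in CpG. The sequences are printed 5′ to 3′ on the strand of the gene, with each CpG in capitals.
Zfp180 (chr7:24081647-24081946, plus strand): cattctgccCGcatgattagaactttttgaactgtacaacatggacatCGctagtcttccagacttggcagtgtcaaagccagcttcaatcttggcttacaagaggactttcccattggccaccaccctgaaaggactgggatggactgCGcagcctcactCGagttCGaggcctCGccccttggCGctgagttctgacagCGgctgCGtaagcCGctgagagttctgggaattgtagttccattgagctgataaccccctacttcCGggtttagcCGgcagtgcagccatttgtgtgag
Zfp746 (chr6:48086544-48086843, minus strand): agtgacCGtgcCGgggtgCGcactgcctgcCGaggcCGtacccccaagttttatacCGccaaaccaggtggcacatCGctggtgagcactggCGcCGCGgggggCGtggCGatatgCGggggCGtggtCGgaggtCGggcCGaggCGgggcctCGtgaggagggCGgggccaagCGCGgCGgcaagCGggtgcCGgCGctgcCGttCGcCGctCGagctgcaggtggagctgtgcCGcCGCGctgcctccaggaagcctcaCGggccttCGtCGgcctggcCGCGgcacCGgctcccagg
Zfp787 (chr7:6155916-6156215, minus strand): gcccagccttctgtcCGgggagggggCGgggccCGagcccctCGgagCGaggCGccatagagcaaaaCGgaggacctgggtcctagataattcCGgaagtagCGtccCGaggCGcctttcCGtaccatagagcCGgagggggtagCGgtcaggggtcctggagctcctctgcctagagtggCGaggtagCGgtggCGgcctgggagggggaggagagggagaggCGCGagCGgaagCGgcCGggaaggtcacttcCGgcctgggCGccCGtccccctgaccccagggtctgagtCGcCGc
The first holds 12, the second 39 and the third 27 CpG. The letters TGCCGC, which Zfp57 recognises when methylated, were searched on both strands and were found in 28 of the 197 windows (14.2%) and in 14.1% of the windows of protein-coding genes. Across 166 members, the CpG count of the richest promoter window and the mean covered share of the gene had a Spearman correlation of 0.37. Gene length and covered share had one of -0.29 over 185 members. Both are descriptions over genes that share libraries and base composition.

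Runs of neighbouring zinc-finger genes were covered to very different extents. Covered here means the share of bases under a peak in the gene and 1 kb on either side, pooled over the genes of a run. The least covered run was Zfp141 to Zfp975 on chromosome 7 (42473386 to 42692810, 4 members), with 0.187 ± 0.225% (SD over 6 libraries). The most covered was Zfp628 to Zfp580 near the start of chromosome 7 (4915181 to 5053723, 6 members), with 12.1 ± 5.43%. The first of these was at 0 in transgenic replicate 1 and wild-type replicates 1 and 3, so no fold is given. Next came the run from Zfp553 to Zfp646, also on chromosome 7 (127233061 to 127885996, 10 members), with 10.8 ± 3.39%. Median gene length was 5412 bp in the first and 7890.5 bp in the second of these highly covered runs, against 32549.5 bp in the least covered one. Across the 15 runs, mean coverage and median gene length had a Spearman correlation of -0.67, and mean coverage and median promoter CpG count one of 0.70, both given as descriptions over runs that share the 6 libraries.

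The 2 largest runs were among the least covered. Zfp712 to Zfp273 on chromosome 13 (67038594 to 67827000, 19 members) had 1.06%, 0.750% and 0.313% of bases under a peak in transgenic replicates 1, 2 and 3 and 0.347%, 1.03% and 0.156% in wild-type replicates 1, 2 and 3. Zfp677 to Zfp946 on chromosome 17 (21383707 to 22456689, 18 members) had 0.936%, 0.918%, 0.697%, 0.561%, 0.745% and 0.157% in the same order. In both runs the values of the groups overlapped. Of all 185 members, 48 (25.9%) had no peak in any library, against 31.6% of other protein-coding genes of the same chromosomes. Of these 48 members, 22 lay in the 2 largest runs, 11 of 19 on chromosome 13 and 11 of 18 on chromosome 17. Among them were the outer members Zfp712, Zfp273 and Zfp677. Zfp946 had a peak in 2 libraries. The bases between the members of these runs were covered more than the genes, at 1.38% and 1.67% (means of 6 libraries). In all, genes were above the bases between them in 9 of 15 runs and below in 6. Rows of fingers are repeated sequence, and the treatment of reads with several matches is not stated in the labels or notes. Low coverage in runs of similar genes is therefore uncertain.

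**Figure D2:**
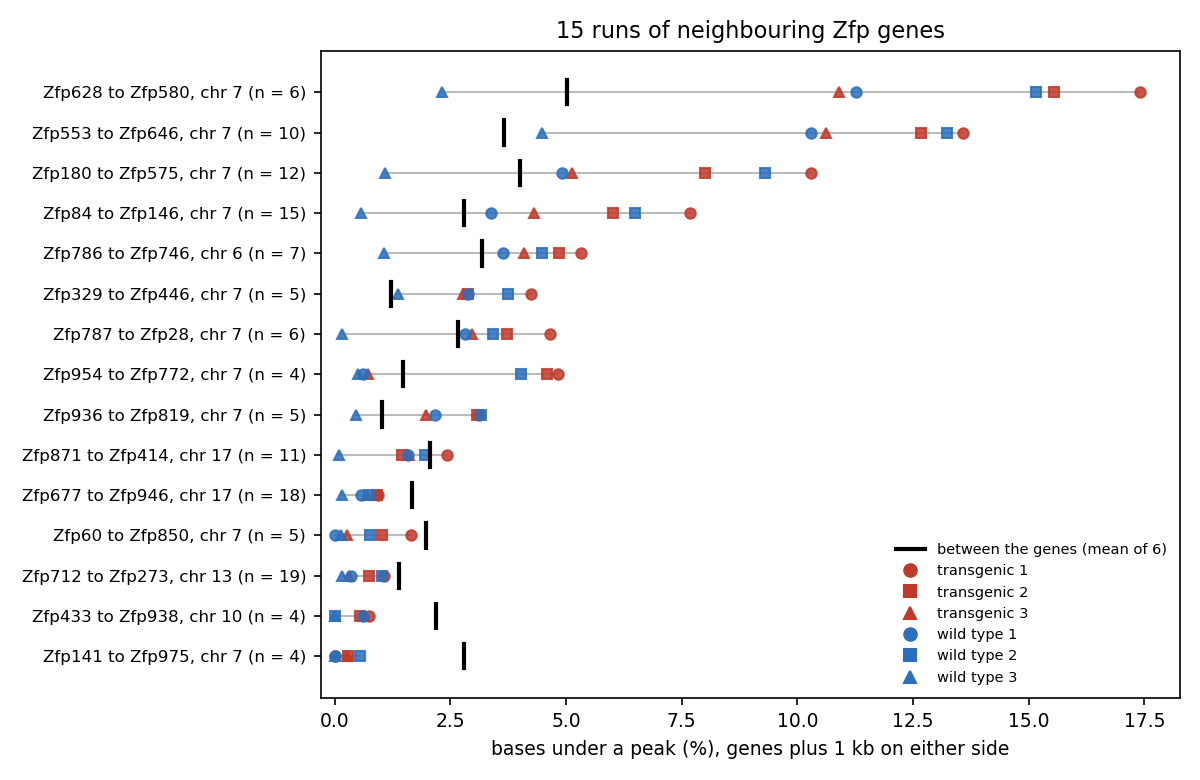
Percent of bases under a peak in each of 15 runs of neighbouring zinc-finger genes, ordered by the mean of the 6 libraries, with 1 symbol per library, a grey line over their range and a black bar for the mean of the bases between the genes. The runs from Zfp628 and Zfp553 lie above 10% on average and the large runs of chromosomes 13 and 17 below 1%.

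The large run of chromosome 7, Zfp84 to Zfp146 (29768552 to 30169775, 15 members), had 4.74 ± 2.56%, and every member had a peak in at least 1 library. Zfp84 itself had a peak in 5 libraries, 4.51 to 4.83 kb inside its transcription end, and Zfp146 in 6, at 1.04 to 1.80 kb. The run of chromosome 6, Zfp786 to Zfp746 (47815536 to 48086986, 7 members), had 3.91 ± 1.51%. The only run of chromosome 10, Zfp433 to Zfp938 (81704747 to 82241280, 4 members), had 0.422 ± 0.333%. Zfp433 had a peak in 3 libraries and Zfp938 in none.

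Clustered members were covered more than isolated ones in 6 of 6 libraries. In transgenic replicates 1, 2 and 3 the shares were 4.07%, 3.39% and 2.48% for clustered and 3.37%, 3.00% and 1.61% for isolated genes. In wild-type replicates 1, 2 and 3 they were 2.28%, 3.55% and 0.596% for clustered and 1.12%, 2.80% and 0.294% for isolated genes. The difference was 0.694 ± 0.315 percentage points (SD, n = 6; two-sided exact sign-flip permutation test, p = 0.0313, adjusted p = 0.0313). Without the 2 runs of short genes that begin at Zfp628 and Zfp553 it was 0.107 points. These runs were left out after the data were seen and are the most covered of the 15, so this value carries no test. Averaged over genes instead of pooled over bases, the difference was 1.85 points. A peak in all 6 libraries was found at 40 of 131 clustered genes (30.5%) and 7 of 34 isolated genes (20.6%), and also at 7 of 20 genes in pairs (35%) and 27.1% of other protein-coding genes. Without wild-type replicate 3, the shares with a peak in all 5 remaining lists were 46.6% and 38.2%. Isolated genes were longer, with a median of 26425 bp against 15559 bp. The longest of them, Zfp536 with 456017 bp, weighed most in their pooled share.

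Zinc-finger genes as a whole were covered more than other protein-coding genes of their chromosomes, but not on each chromosome. Pooled over the 5 chromosomes, 2.54 ± 1.23% of their bases and 1.92 ± 1.08% of those of 5860 other genes lay under a peak (SD, n = 6; difference 0.623 ± 0.195 points, higher in 6 of 6 libraries, exact sign-flip permutation p = 0.0313, adjusted p = 0.0313). On chromosomes 6 and 7 the members were above the other genes in 6 of 6 libraries, at 2.48% against 1.46% and 3.73% against 2.12% (means). On chromosomes 10 and 17 they were below in 6 of 6 libraries, at 1.12% against 2.03% and 1.23% against 2.49%. On chromosome 13 they were above in 1 of 6, at 1.24% against 1.62%. With each chromosome weighted alike the difference was 0.0157 points (exact sign-flip permutation p = 0.906).

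**Figure D3:**
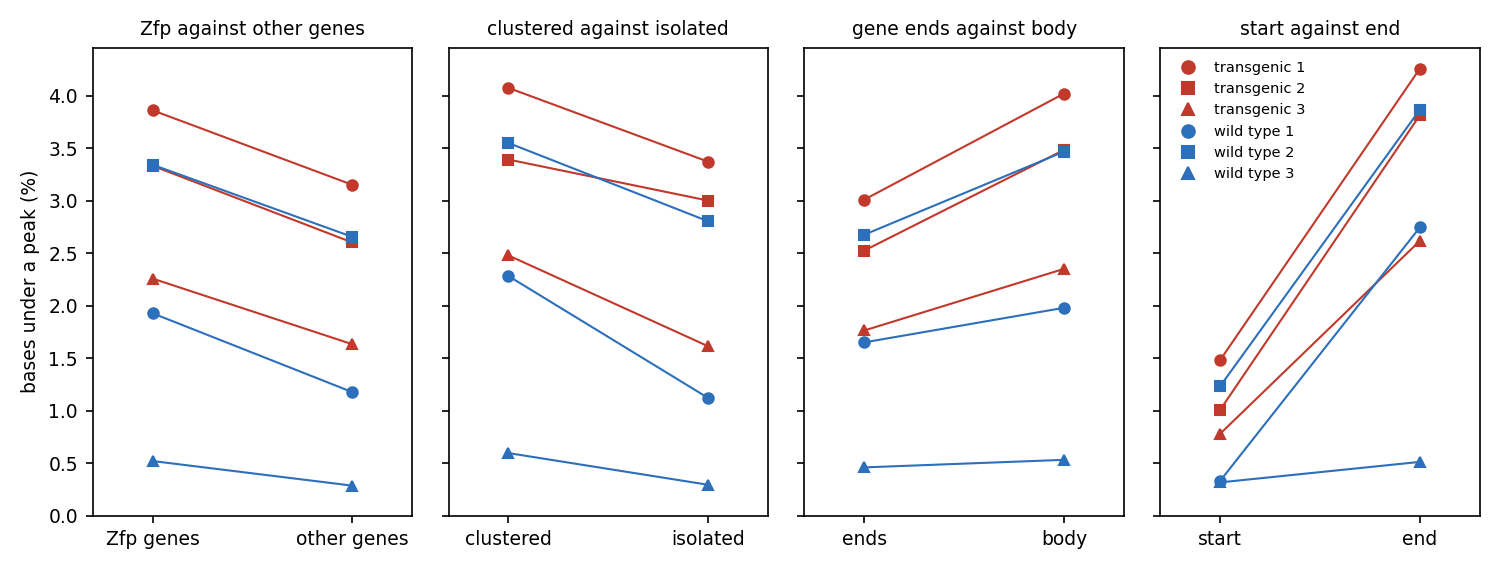
Percent of bases under a peak in each library for 4 pairs of values joined by lines, which are zinc-finger against other genes, clustered against isolated members, gene ends against body, and transcription start against transcription end. Every line of a panel slopes the same way, and the lowest lines are those of wild-type replicate 3.

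The members most covered in every library all lay in runs on chromosome 7. Ranked by the lowest of their 6 values, the first 8 were Zfp629, Zfp553, Zfp768, Zfp524, Zfp579, Zfp324, Zfp689 and Zfp764. Their lengths were 2520 to 8758 bp, except for Zfp764 with 27074 bp. Zfp579 (4992852 to 4996101) had 37.2%, 34.0% and 30.2% of its bases under a peak in transgenic replicates 1, 2 and 3 and 30.6%, 31.3% and 6.48% in wild-type replicates 1, 2 and 3. Its peak was centred 1.23 to 1.33 kb inside the transcription end in 5 libraries and at 0.788 kb in wild-type replicate 3. Zfp768 (127342795 to 127345314) had 24.3%, 25.1%, 26.1%, 25.2%, 25.8% and 7.65% in the same order. Apart from wild-type replicate 3, the libraries of both groups lay within 2 percentage points of each other at this gene. Zfp629 (127607028 to 127615785) had its highest value, 18.7%, in wild-type replicate 1, above 13.7% to 14.4% in the transgenic libraries. Zfp324 (12965838 to 12974244) had a peak centred 3.11 to 3.37 kb inside its end in all 6 libraries and covered 5.90% to 10.3% of the gene with its margins. At none of these 8 genes were the 3 transgenic values all above the 3 wild-type values, where 4.99% of all protein-coding genes had this pattern. The 8 were picked by the same values, so this count is a description only.

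Mean coverage of the zinc-finger genes was greater in transgenic lungs, by less than the SD of the wild-type libraries. The share of bases was 3.86%, 3.33% and 2.26% in transgenic replicates 1, 2 and 3 and 1.93%, 3.34% and 0.520% in wild-type replicates 1, 2 and 3, so the groups overlapped. The means were 3.15 ± 0.817% and 1.93 ± 1.41% (SD, n = 3 each), a difference of 1.22 points (two-sided exact permutation p = 0.30, adjusted p = 0.45 over 3 tests, where 3 against 3 cannot go below 0.10). Without wild-type replicate 3 the difference was 0.515 points and without wild-type replicate 2 it was 1.93. When every list was cut to the length of the shortest by score it was 0.466 points (exact permutation p = 0.40). With full lists, other protein-coding genes of the same chromosomes had 3.15%, 2.60% and 1.63% of bases covered in transgenic replicates 1, 2 and 3. In wild-type replicates 1, 2 and 3 they had 1.18%, 2.66% and 0.286%. A higher transgenic mean with overlapping groups was thus not particular to zinc-finger genes. Of the 185 genes, 65.9%, 65.4% and 57.3% had a peak in the transgenic and 54.6%, 64.9% and 33.0% in the wild-type libraries. The means of 62.9 ± 4.84% and 50.8 ± 16.3% (SD, n = 3 each) differed by 12.1 points (exact permutation p = 0.20, adjusted p = 0.45). This difference was 0.721 with equal numbers of peaks and 3.15 without wild-type replicate 3, and it was 19.1 without wild-type replicate 2 and 17.5 when peaks scoring below the pooled median were dropped. The clustered minus isolated difference was 0.653 ± 0.241 points in transgenic and 0.736 ± 0.430 points in wild-type lungs (SD, n = 3 each; exact permutation p = 0.90, adjusted p = 0.90). It was not stable in sign, at 0.168 points between the groups with equal numbers of peaks against -0.083 with all peaks.

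At 8 of 185 members (4.32%) all 3 transgenic values were above all 3 wild-type values, and at 0 all were below. The second count was 3 (1.62%, against 0.813% of all genes) without wild-type replicate 3. It was 1 (0.541%, against 0.0457%) without transgenic replicate 1. Of all 21887 protein-coding genes, 4.99% were separated in the first way and 0.0137% in the second, so the zinc-finger genes stood near the background. Leaving out wild-type replicate 2 raised the first count to 65 members (35.1%), against 41.3% of all genes. Leaving out transgenic replicate 3 gave 46 members (24.9%), against 25.4% of all genes. The 5 of the 8 with the largest difference were Zfp213, Zfp619, Zfp787, Zfp786 and Zfp943. Zfp213 on chromosome 17 (23556767 to 23564226) had 13.4%, 12.96% and 12.7% of bases covered in transgenic and 9.94%, 12.1% and 5.16% in wild-type replicates 1, 2 and 3. The lowest transgenic value, in replicate 3, stood just above the value of wild-type replicate 2. Zfp619 on chromosome 7 (39517766 to 39540415) had 6.03%, 6.19% and 3.74% against 3.14%, 3.48% and 0%, from 1 peak per library in the 5 libraries that had one. Zfp786 on chromosome 6 (47815536 to 47836197) had 6.89%, 5.69% and 5.06% against 4.55%, 4.48% and 0%. Zfp943, in the large run of chromosome 17 (21962559 to 21994366), had 2.13%, 2.53% and 0.988% against 0%, 0.831% and 0%. No one of these genes can reach an exact permutation p below 0.10.

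**Figure D4:**
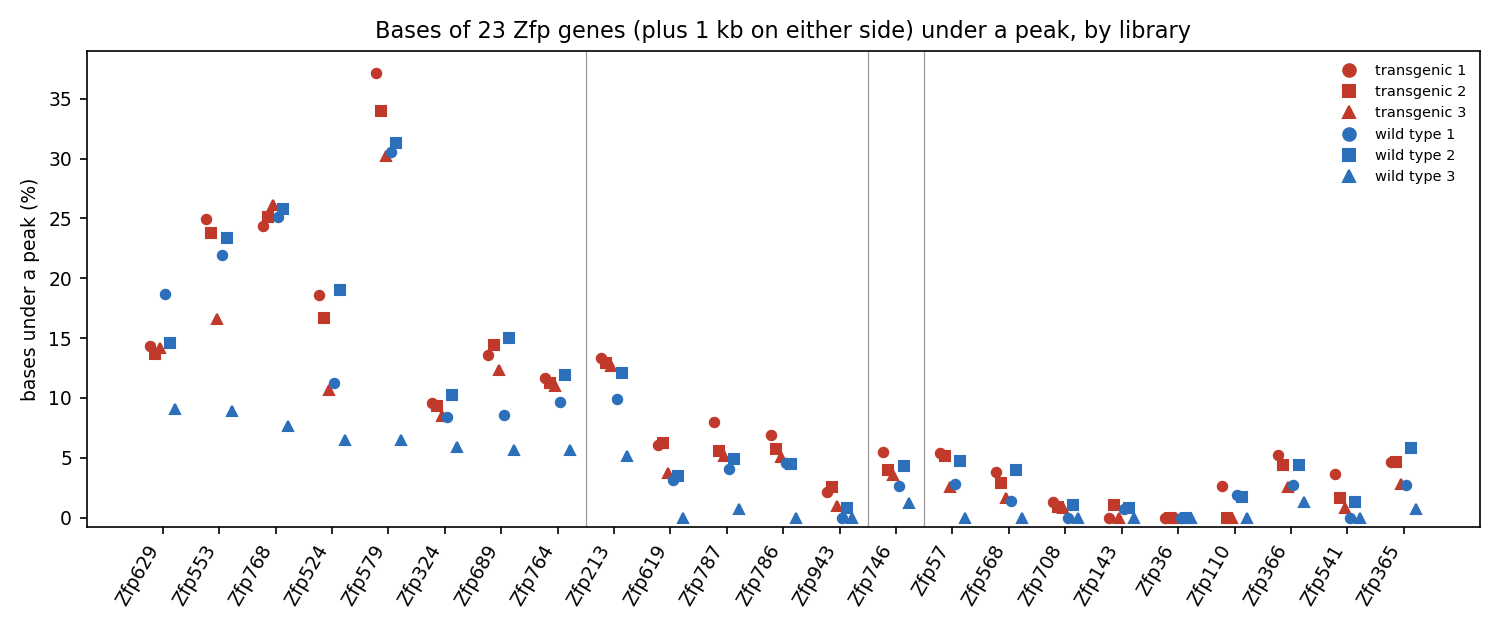
Percent of bases under a peak in each library for 23 zinc-finger genes, in 4 blocks from left to right, which are the 8 most covered in every library, the 5 with separated groups and the largest difference, Zfp746 with a differential region, and 9 genes with a known role. Wild-type replicate 3 is the lowest point, or tied for it, at every gene of the first 2 blocks, and the second block was chosen for transgenic points above all wild-type points.

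The authors' deposited table of differential regions held 2 regions at zinc-finger genes, both higher in the transgenic mice. Peaks shared by 3 or more libraries merged into 92205 regions, of which 214 lay at members, so the 2 were 0.935% of these. All 407 regions of the authors' deposited table were 0.441% of the 92205, the 304 higher ones 0.33%, and the 103 lower ones, with 0 at members, 0.112%. The table lists regions with an FDR up to 0.0996. The region at Zfp787 (chromosome 7, 6131697 to 6133293) had a log2 fold of 0.78, or 1.72-fold, and the authors' deposited table gave it an FDR of 0.016. Its log2 concentrations there were 7.07 in transgenic and 6.28 in wild-type libraries, as the authors' values with no spread given. The scores of its peaks were 1326, 893 and 614 in transgenic and 143, 584 and 72.1 in wild-type replicates 1, 2 and 3, without overlap of the groups. Over the whole gene (6131489 to 6159380), 8.02%, 5.60% and 5.16% of bases were covered in transgenic and 4.09%, 4.85% and 0.713% in wild-type libraries. These peaks come from the same reads as the region and are no independent support.

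The second region lay in Zfp746, a KRAB zinc-finger gene whose protein, also called PARIS, is a target of the ubiquitin ligase parkin. It covered positions 48063735 to 48064852 of chromosome 6, and the authors' deposited table listed it with a log2 fold of 0.67 (1.60-fold) and FDR 0.0379. The authors' peak scores were 1511, 877 and 484 in transgenic and 189, 655 and 150 in wild-type replicates 1, 2 and 3, so wild-type replicate 2 stood above transgenic replicate 3. Scores are not scaled between libraries. The gene (48062391 to 48086986) was covered to 5.49%, 3.96% and 3.52% in transgenic and 2.63%, 4.32% and 1.23% in wild-type libraries. Both regions lay at the far end of their genes from the promoters printed above, 209 to 1804 bp inside the transcription end of Zfp787 and 1345 to 2461 bp inside that of Zfp746. The authors' deposited annotation placed a CpG island within each of the 2 regions. It placed the first region inside its assigned gene and the Zfp746 region upstream of the gene assigned to it, by Ensembl identifiers.

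At members, 5 of 368 merged regions (1.36%) had a peak in each transgenic and in no wild-type library, against 1.8% of 165995 merged regions of the genome. The opposite pattern was found at 0 of 368, against 0.0145%. The 5 genes, named after their values were seen, were Zfp873, Zfp786, Zfp787, Zfp507 and Zfp536. The region in Zfp786 (chromosome 6, 47827725 to 47828172) had scores of 228, 58.0 and 93.4 in transgenic replicates 1, 2 and 3. The other 4 had scores of 54.0 to 148, where the lowest score in each list was 50.

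Of 9 genes with a known role, 2 had a peak in all 6 libraries and 1 in none. Zfp57, which keeps methylation at imprinted control regions, is an isolated gene of chromosome 17 (37001163 to 37010729). It had a single peak, 0.807 to 1.03 kb inside its transcription end, in 5 libraries and none in wild-type replicate 3. The scores of that peak were 177, 204 and 55.1 in transgenic replicates 1, 2 and 3 and 56.3 and 145 in wild-type replicates 1 and 2, so the groups overlapped. Zfp568, a repressor of a placental Igf2 transcript, had 3.77%, 2.90% and 1.63% of bases covered in transgenic and 1.40%, 4.01% and 0% in wild-type libraries. Zfp708, which binds a class of retrotransposons in the early embryo, had 1 peak in 4 libraries, 3.88 to 3.98 kb inside its end. Zfp541, a gene of meiotic germ cells, had its highest peak 0.0365 to 0.352 kb inside the transcription start. This held in all 3 transgenic libraries and wild-type replicate 2. The scores of this peak were 374, 235 and 54.8 in transgenic libraries and 266 in that wild-type one. Zfp365 had its highest peak 2.99 to 3.16 kb inside the start in 6 of 6 libraries, and Zfp366, a dendritic-cell gene, had 2 to 5 peaks in each. Zfp143, an activator that binds many promoters, and Zfp110, a partner of the neurotrophin receptor, each had 1 peak in 3 libraries. The RNA-binding gene Zfp36 had none in any library.

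Of 17 genes for co-repressors and heterochromatin proteins that work with KRAB zinc fingers, 4 had a peak in all 6 libraries and 2 in none. Among other protein-coding genes of the 5 chromosomes, 27.1% had a peak in all 6 and 31.6% in none. Most of the 17 genes lie on other chromosomes, so these shares are a rough background. The authors' deposited table held 0 regions at the 17 genes, where 0.441% of all regions were listed. The regions at the 17 genes were not counted, so the 0 cannot be set against that share. The genes without a peak were Trim28, the co-repressor bound by KRAB domains, and Cbx3, a heterochromatin protein. Coverage was highest at the chromatin remodelling genes Chd3 and Chd4 and at Daxx, a histone chaperone that works with Atrx. Chd3 had 17.9%, 13.7% and 8.21% of bases covered in transgenic and 5.25%, 13.2% and 3.18% in wild-type replicates 1, 2 and 3, with overlapping groups. All 3 transgenic values were above all wild-type values at 2 of 17 genes, Cbx5 and Smarcad1, against 4.99% of protein-coding genes. At Cbx5, which encodes a heterochromatin protein, these were 0.324% to 0.367% against 0%, 0.322% and 0%.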

How the data were processed

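Methylated lung DNA was captured for 3 transgenic and 3 wild-type libraries with a MethylCap kit, per the labels' protocols. Reads were aligned to mm10 with Bowtie and compared with DiffBind and edgeR, per the submitters' processing notes; versions, normalization, peak-calling settings and the handling of reads with several matches are not given in sources used here. The deposited peak lists give 1 score per peak, at least 50, called per library and not scaled between them. The authors' deposited table gives log2 concentrations, a log2 fold, a p-value and an FDR per region. No depth was used, so no counting interval is given.

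Gene spans (RefSeq GRCm38.p6, 1 kb added on either side) were overlapped with peaks by any shared base, and the percent of bases under a peak was pooled over genes. Strand came from the RefSeq promoter table, which lacked 19 of 185 members. Groups were compared by exact permutation of 3 against 3 libraries, and paired contrasts by exact sign flips over 6, with Benjamini-Hochberg adjustment over 3 and 4 tests. The scripts (Python 3.11.15, numpy 2.4.6, pandas 2.3.3, scipy 1.17.1) were tested on simulated data and found 200 of 200 planted genes among 6045. Each planted peak spanned a whole gene in the 3 transgenic lists only, so this recovery shows nothing about smaller differences. Named genes were those with a differential region, 9 with a known role, the 8 with the highest minimum over libraries, up to 5 in each direction with separated groups and the largest difference, and the first and last member of the largest run of each chromosome. The members and lists were chosen with earlier results of these data known. Counts of zinc fingers were not analysed here. Same-numbered libraries had correlations of deviations of -0.06, 0.39 and 0.60, so the numbers were not taken as pairs.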

Additional observations from a re-analysis of the deposited data

How the results depend on the processing

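Of 86 recomputed values, 54 were unchanged, 26 fell short of the threshold, 4 turned in sign and 2 counts moved. Unchanged meant the same direction and side of the threshold, or a count that moved little. Comparisons of 3 against 3 libraries cannot go below 0.10 and counts carry no p. Most of the 54 therefore could not change side. The ends minus body difference turned to 0.398 points with 2000 bp windows (exact sign-flip permutation p = 0.0313), so its direction depended on the window. The clustered minus isolated difference was 0.107 points without the 2 runs of short genes, and the difference from other genes was 0.0157 points with chromosomes weighted alike, both alternatives chosen after seeing the data. The difference between groups in the clustered minus isolated contrast turned to 0.168 points with equal numbers of top-scoring peaks, and ranged from -0.30 to 0.129 when 1 library was left out (0.0476 without transgenic replicate 2 and 0.129 without wild-type replicate 1). With 1 library left out, sign flips over 5 cannot go below 0.0625, so all 4 within-library contrasts missed the threshold by construction. Their values then ranged from -0.73 to -0.55 (ends minus body), -2.49 to -1.97 (start minus end), 0.601 to 0.773 (clustered minus isolated) and 0.597 to 0.700 (members minus other genes). The count of members with higher transgenic values in separated groups was 7 with equal numbers of top-scoring peaks (3.78%, against 4.01% of all genes). It ranged from 8 to 65 with 1 library left out. It was 65 without wild-type replicate 2 (35.1%, against 41.3% of all genes) and 46 without transgenic replicate 3 (24.9%, against 25.4%). The shares of members thus moved with those of all genes. With the replicate number as a block, which the correlations did not bear out as a pairing, the differences between groups stayed at 12.1 points (exact p = 0.25), 1.22 points (exact p = 0.50) and -0.083 points (exact p = 1). The neighbour alternative added 20 other Zfp-named genes only. Read depth is unknown, so a gene without a peak in a short list is not shown to lack methylation.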
